A study of Rattus norvegicus with 40 samples.

Results

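Of 9 genes of the amyloid precursor and Alzheimer's disease pathway, 7 were followed across every group of a study of developmental lead exposure in the rat hippocampus. A gene was taken where the array's annotation table gave it a probe set with no other gene symbol, and where a gene had several such probe sets the one with the highest mean was used. App (probe set 10752811), Aplp1 (10720572), Bace1 (10909691), Psen2 (10770298), Mapt (10738744), Apoe (10719530) and Sp1 (10899552) met that rule, and Aplp2 and Adam10 were not analysed here. The 7 genes stand among 14506 genes with such a probe set and among 29214 probe sets in all. Sp1 alone had a second probe set of its own (10899545), which is given beside the first.

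Hippocampal RNA was taken from male and female rats killed at postnatal day 55, and each of 40 samples was run on 1 array. The 10 groups held 4 arrays each. Male and female controls had control chow, and the other animals had chow with lead acetate at 250 or 750 ppm in 1 of the exposure windows. In the perinatal window the dams ate lead chow from 10 days before breeding until weaning, after which the pups ate control chow. In the postnatal window the lead chow was given from birth to day 45, so that all exposed animals had been back on control chow by day 55. The strain and the litters were not given in the sources used here, and the replicates of a group are numbered here in the order of the samples. The p-values speak of the spread among these arrays alone, and the number of arrays limited the precision.

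App encodes the amyloid precursor protein, a membrane protein abundant in neurons. Bace1, the beta-secretase, and then gamma-secretase, of which Psen2 is a catalytic subunit, cut it to release amyloid beta, while alpha-secretases cut within the amyloid beta stretch. Aplp1 is a neuronal paralog of App, Mapt encodes the microtubule-binding protein tau, and Apoe encodes the main lipid carrier of the brain, made largely by astrocytes. Sp1 is a zinc-finger transcription factor that binds GC-rich promoter elements and is a known activator of the App promoter. Higher App and Sp1 messages have been described in the brains of old rodents that had lead early in life, and the comparison here asks whether either gene differed at day 55.

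The element that Sp1 is known to bind, the GC box, was searched for as the letters GGGCGG on both strands in the 250 bases before each start in a RefSeq promoter table (build GRCr8). It was found in 30.5% of all 33469 entries, and in 4 of the 6 members with an entry. A member was counted where any of its listed starts had a match, so these shares are of entries and of genes and are not alike. The windows below are those of App and Sp1, whose levels the comparison turns on, and of Aplp1, the paralog of App, each read on the strand of the gene with the motif in capitals.
App, chr11:37723011-37723040, minus strand, 190 bases before the listed start: ggcaagccgggtGGGCGGgatcagctgact
Sp1, chr7:135419914-135419943, plus strand, 124 bases before the listed start: gcagcagataagGGGCGGggactaggccgg
Aplp1, chr1:94834673-94834702, minus strand, 80 bases before the listed start: ggggccggcgcgGGGCGGggctggcggcgc
Aplp1, chr1:94834642-94834671, minus strand, 49 bases before the listed start: ggcgcagcccggGGGCGGcgggaggaggag
These windows lie inside the RefSeq spans of their genes (App chr11:37506207-37724351, Sp1 chr7:135419864-135450513, Aplp1 chr1:94824330-94834705), so they may overlap a longer transcript. Apoe (chr1:88481889-88485816) held 2 matches before 2 of its 3 listed starts, also inside its span. No match was found in the windows of Bace1 (chr8:55038842-55061138) or Psen2 (chr13:94499451-94528419). A match describes the sequence only, and binding was not measured.

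Values are log2 signals as deposited, and since each probe set has its own sensitivity, levels were compared between samples and never between genes. Array medians lay between 6.96 and 7.06. In 3 of the 8 control arrays the X-linked gene Eif2s3 went against the sex label: male control replicate 4 read 11.69 and female control replicates 1 and 3 read 11.28 and 11.30, against 11.62 to 11.77 in exposed females and 11.15 to 11.42 in exposed males. In 3 other arrays, males exposed perinatally to 250 ppm (replicates 1 and 3) and to 750 ppm (replicate 1), the signal scale was flattened: the slope against the mean array lay 0.0191 to 0.0325 below 1, whereas on the other arrays it lay between 0.0132 below and 0.018 above it. The numbers in the sample titles fell into 3 ranges. Both control groups shared a range with 1 exposed group only, the females exposed perinatally to 750 ppm, so that for the other 7 exposed groups exposure and title range cannot be told apart. All 12 neuronal markers lay above the array median on every array, as did all 9 measured astrocyte markers and all 11 measured oligodendrocyte markers.

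App did not differ between exposed and control animals beyond the spread between arrays. Its signal was high and close to constant: the SD within groups was 0.0361 log2, and 0.23% of all probe sets had a smaller one. Male controls read 12.06, 12.15, 12.07 and 12.08 and female controls 12.07, 12.18, 12.10 and 12.13. After perinatal lead the males read 12.12, 12.18, 12.10 and 12.12 at 250 ppm and 12.10, 12.14, 12.12 and 12.12 at 750 ppm. The female arrays read 12.19, 12.08, 12.07 and 12.13 at 250 ppm and 12.16, 12.13, 12.13 and 12.15 at 750 ppm. These values all lay between 12.06 and 12.19, and every exposed group overlapped its controls. After postnatal lead App read 12.03, 12.11, 12.12 and 12.11 in males at 250 ppm and 12.07, 12.09, 12.10 and 12.14 at 750 ppm. Females given postnatal lead read 12.07, 12.16, 12.09 and 12.12 at 250 ppm and 12.15, 12.11, 12.12 and 12.15 at 750 ppm.

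The group means of App spanned 0.0499 log2, from 12.09 in male controls to 12.14 in females exposed perinatally to 750 ppm. In the order of the 10 means no neighbours differed by more than 0.0115, which was less than the larger of their SDs in each of the 9 pairs. Against controls of the same sex label the 8 differences ran from -0.01 to 0.04 (SE 0.0286 each), and 6 of them were above 0. The smallest adjusted p was 0.85 (limma, Benjamini-Hochberg over all probe sets). Over all 32 exposed arrays against all 8 control arrays, with every group weighted equally, the difference was 0.0116 (SE 0.016, adjusted p = 0.96, limma), and 22 of the 32 exposed arrays lay above the mean of the controls. Its 95% confidence interval ran from -1.44% to +3.10% in signal. Perinatal lead alone gave 0.0209 (adjusted p = 0.87) and postnatal lead alone 0.0023 (adjusted p = 0.98). Without the 3 control arrays that went against their sex label the difference over all lead was -0.0076 (SE 0.0198). With and without them the difference was smaller in size than its SE, and no other set of 3 control arrays was left out.

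**Figure D1:**
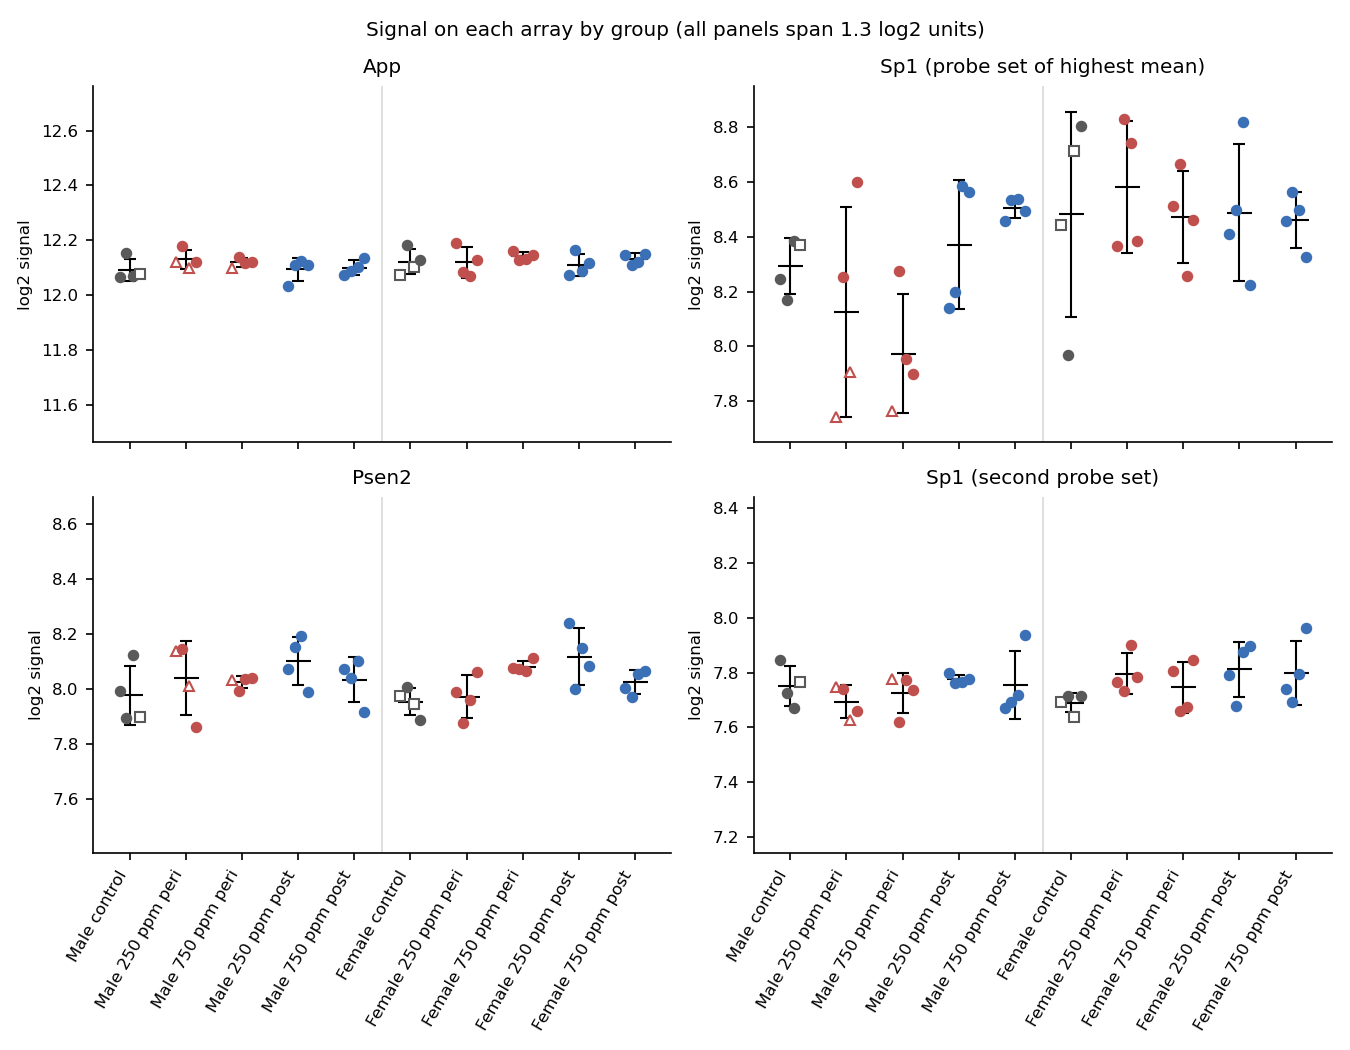
Log2 signal of App, Sp1, Psen2 and the second Sp1 probe set on each of the 40 arrays, by group. Bars give mean ± SD (n = 4), and all panels span the same number of log2 units. Grey marks controls, red perinatal and blue postnatal lead, open squares the 3 control arrays that went against their sex label and open triangles the 3 flattened arrays; App stays between 12.03 and 12.19 while Sp1 runs from 7.74 to 8.83.

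Sp1 did not differ between all exposed and all control animals either, but its values spread far more between arrays of a group. The SD within groups was 0.236 log2, and 91.7% of all probe sets had a smaller one. Male controls read 8.25, 8.17, 8.38 and 8.37, and female controls spread from 7.97 in replicate 2 to 8.44, 8.71 and 8.80 in the others. Males exposed perinatally read 7.74, 8.25, 7.91 and 8.60 at 250 ppm and 7.77, 8.28, 7.95 and 7.90 at 750 ppm. Males exposed postnatally read 8.14, 8.20, 8.59 and 8.56 at 250 ppm and 8.46, 8.54, 8.54 and 8.49 at 750 ppm. Among the males, the perinatal arrays were thus mostly at or below the controls, and the 4 arrays of postnatal lead at 750 ppm were all above them, as were 2.42% of all probe sets in that comparison. Females exposed perinatally read 8.37, 8.83, 8.74 and 8.38 at 250 ppm and 8.51, 8.66, 8.26 and 8.46 at 750 ppm. Females exposed postnatally read 8.41, 8.50, 8.82 and 8.22 at 250 ppm and 8.46, 8.56, 8.50 and 8.32 at 750 ppm. By the first probe set the female groups all overlapped their controls. By the second, females exposed perinatally to 250 ppm read 7.76, 7.73, 7.90 and 7.79, all above the female controls (7.64 to 7.715). In that comparison 2.13% of all probe sets lay so. Means of the second probe set were 7.69 in female controls and 7.75 to 7.81 in exposed females. In males they were 7.75 in controls and 7.69 to 7.78 after lead. A limma F test over the 10 groups gave it an adjusted p of 0.78.

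Over all lead against all controls, Sp1 differed by -0.0151 log2 (SE 0.088, adjusted p = 0.99, limma), with 18 of 32 exposed arrays above the mean of the controls. The 95% confidence interval ran from -12.6% to +12%, several times as wide as that of App. The direction of this difference turned under other settings. It was 0.0312 without the 3 flattened arrays, 0.0455 without the 3 mismatched controls and 0.0418 (SE 0.035) by the second probe set. The females exposed perinatally to 750 ppm alone gave 0.0859 against all 8 control arrays of both sexes, and -0.0086 against female controls. Female controls lay 0.19 above male controls (adjusted p = 0.99, limma). Against male controls, males exposed perinatally to 750 ppm lay 0.32 lower (SE 0.157, unadjusted p = 0.050, adjusted p = 0.64, limma), and males exposed postnatally to 750 ppm lay 0.21 higher (adjusted p = 0.68). Across the groups, the means ran from 7.97 in males exposed perinatally to 750 ppm to 8.58 in females exposed perinatally to 250 ppm. No pair of neighbours in that order differed by more than 0.167, nor by more than the larger of their SDs.

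The largest single difference of any member lay between the windows in males at 750 ppm. Postnatal lead gave Sp1 signals 0.53 log2 above perinatal lead there (SE 0.157, unadjusted p = 0.0018, adjusted p = 0.12, limma), and all 4 postnatal arrays lay above all 4 perinatal ones, as in 2.69% of all probe sets. In this comparison 0.175% of all probe sets were called at an adjusted p under 0.05, and Sp1 was not among them. Without replicate 2 of the males exposed perinatally to 750 ppm it was 0.63 with an adjusted p of 0.0498, just past the threshold. These groups lie in different ranges of title numbers, so that here the window and the range cannot be told apart. Markers of the choroid plexus, the tissue that makes cerebrospinal fluid, also lay apart in these groups: against male controls, 0 of 9 measured markers lay above 0 after perinatal lead (median -1.03) and 7 of 9 after postnatal lead (median 0.29), with none called. They lay below controls in all 4 perinatal groups. After postnatal lead at 250 ppm 1 of 9 lay above 0 in females (median -0.227) and 8 of 9 in males (median 0.534). At 750 ppm postnatal 5 of 9 did in females (median 0.0187). Over all lead 0 of 9 lay above 0 (median -0.375). List means of these markers ran from 6.51 to 10.001 in controls and from 6.54 to 10.20 after lead. Their part in the Sp1 values was not tested. Exposed females lay 0.26 above exposed males (SE 0.0787, adjusted p = 0.19, limma), where 0.0924% of probe sets were called.

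Sp1 was low on the flattened arrays, of which 1 enters the comparison of windows and 3 that of the sexes. On those 3 arrays Sp1 read 7.74 to 7.91, while the lowest of the other 37 arrays read 7.90, and over all 40 arrays Sp1 correlated with the array slope at r = 0.648 (App 0.246, second Sp1 probe set 0.181). Without the 3 arrays the difference between the windows at 750 ppm was 0.46 (adjusted p = 0.33), with the 3 remaining perinatal arrays still below all 4 postnatal ones, and that between the sexes was 0.16 (adjusted p = 0.88). With the slope of each array as a covariate they were 0.29 (adjusted p = 0.99) and 0.17 (adjusted p = 0.73). In males exposed perinatally to 250 ppm the difference from controls was -0.17 with all arrays and 0.13 without the flattened ones. The second probe set gave 0.0274 between the windows and 0.0503 between the sexes. The Sp1 probe sets did not track each other over the 40 arrays (r = 0.0386 over arrays of all groups, and -0.196 after subtracting each group's mean).

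**Figure D2:**
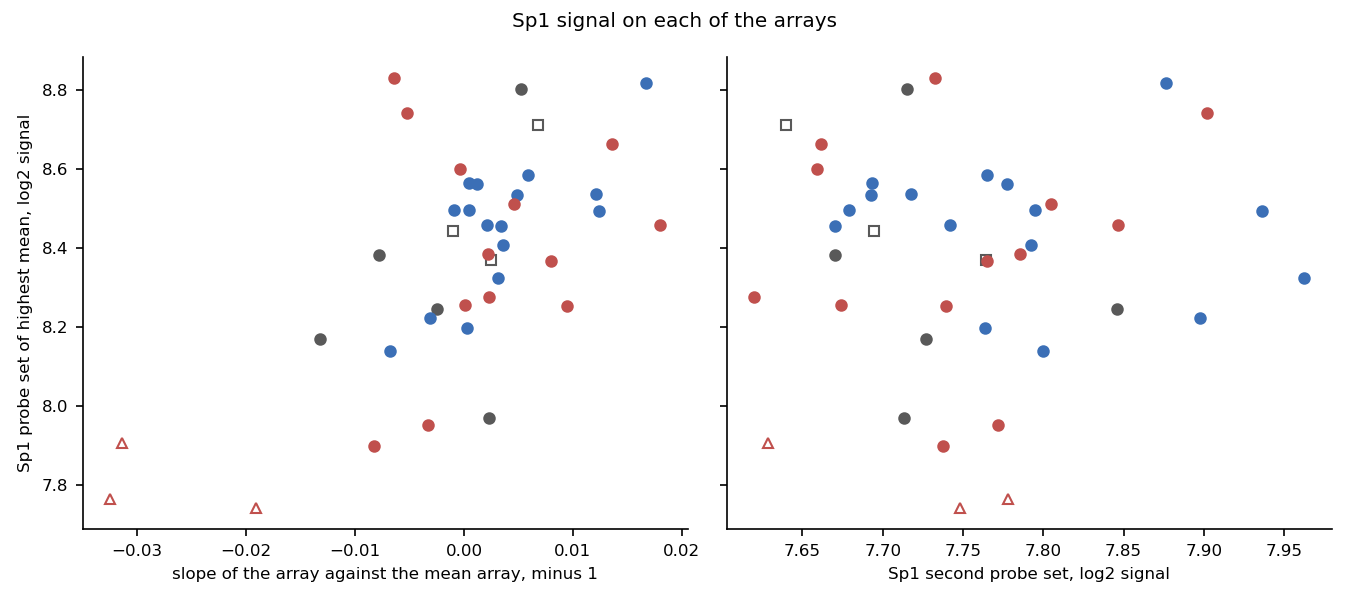
The Sp1 signal of each of the 40 arrays in log2 units, plotted against the slope of that array minus 1 (left, no unit) and against the log2 signal of the second Sp1 probe set (right), with controls in grey, perinatal lead in red, postnatal lead in blue and the mismatched controls as open squares. The 3 flattened arrays (open triangles) lie at the low end of Sp1, between 7.74 and 7.91, and the Sp1 probe sets show no common order (r = 0.0386).

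Psen2, the gamma-secretase subunit presenilin 2, was the member that most often lay above controls, yet no comparison passed the test over all probe sets. Male controls read 7.99, 7.89, 8.12 and 7.90, and female controls 7.97, 8.01, 7.95 and 7.89. Males read 8.14, 8.15, 8.01 and 7.86 after perinatal lead at 250 ppm and 8.03, 7.99, 8.04 and 8.04 at 750 ppm. After postnatal lead they read 8.07, 8.15, 8.19 and 7.99 at 250 ppm and 8.07, 8.04, 8.10 and 7.92 at 750 ppm. In males every exposed group overlapped the controls, whose replicate 3 was high. Females read 7.99, 7.88, 7.96 and 8.06 after perinatal lead at 250 ppm and 8.08, 8.07, 8.07 and 8.11 at 750 ppm. After postnatal lead they read 8.24, 7.998, 8.15 and 8.08 at 250 ppm and 8.004, 7.97, 8.05 and 8.07 at 750 ppm. The 4 females exposed perinatally to 750 ppm all lay above the 4 female controls, as did 2.58% of all probe sets in that comparison. In the same comparison, where 0.157% of all probe sets were called, the liver genes Alb (1.04 log2, adjusted p = 9.3e-05, limma) and Apoc3 (0.80, adjusted p = 0.0019) were called higher. So was the astrocyte connexin gene Gjb6 (0.42, adjusted p = 0.047). Of the 7 liver markers 4 lay above 0 (median 0.176), and of the 9 astrocyte markers 8 did (median 0.0303). Their part in the Psen2 values was not tested.

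The 8 differences of Psen2 from controls were all above 0, from 0.0181 to 0.164 log2 (SE 0.0612 each). The 4 comparisons of a sex share its controls, so they are not independent of one another, and 6.05% of all 14506 genes lay above controls in all 8. Postnatal lead at 250 ppm gave 0.16 in females (unadjusted p = 0.011, adjusted p = 1, limma) and 0.12 in males (unadjusted p = 0.049, adjusted p = 0.83). Females exposed perinatally to 750 ppm, the group in the controls' range of title numbers, lay 0.13 higher (unadjusted p = 0.045, adjusted p = 0.84). Over all lead the difference was 0.0838 (SE 0.0342, 95% confidence interval 0.0144 to 0.153), a fold of 1.06, with 28 of 32 exposed arrays above the mean of the controls and an adjusted p of 0.50 (limma). Postnatal lead alone gave 0.104 (SE 0.0375, adjusted p = 0.37), with 15 of 16 arrays above. With the mismatched controls left out the difference over all lead was 0.0737, and with the flattened arrays left out it was 0.0791. The order of the 10 group means held no neighbours further apart than 0.0475, and none exceeded the larger of their SDs.

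Bace1, Aplp1, Mapt and Apoe lay slightly above controls over all lead, by less than 0.04 log2 each. Bace1 differed by 0.0389 (SE 0.0254), Aplp1 by 0.0346 (SE 0.0201), Mapt by 0.0207 (SE 0.0255) and Apoe by 0.0192 (SE 0.0224), with adjusted p-values from 0.76 to 0.95 (limma). For Apoe the sign turned to -0.0116 without the mismatched controls. In single comparisons Bace1 ran from -0.007 to 0.0705 with 7 of 8 above 0, Aplp1 from -0.0313 to 0.0705 with 7 of 8, Mapt from -0.0198 to 0.0378 with 6 of 8, and Apoe from -0.019 to 0.044 with 5 of 8. The confidence intervals of these single comparisons allowed at most an 11.9% higher signal for Bace1, 10.4% for Aplp1, 9.46% for Mapt and 9.08% for Apoe.

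The control arrays of Bace1 read 10.51 at the lowest, 10.56 at the median and 10.70 at the highest, against 10.51, 10.61 and 10.75 on the exposed arrays. For Aplp1 these were 11.52, 11.67 and 11.72 in controls and 11.58, 11.69 and 11.79 after lead. Mapt read 10.86, 10.92 and 10.996 in controls and 10.81, 10.96 and 11.05 after lead. In each of these genes the exposed and control arrays overlapped over most of their range. Apoe read 12.33, 12.42 and 12.48 in controls and 12.30, 12.42 and 12.54 after lead, with medians 0.01 apart or less.

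Aplp1, the paralog of App, varied most between groups among these 4 genes, with means from 11.61 in male controls to 11.75 in females exposed perinatally to 250 ppm. In females the perinatal group at 750 ppm lay 0.0898 below that at 250 ppm (unadjusted p = 0.017, adjusted p = 0.49, limma). Exposed females lay 0.0398 above exposed males (unadjusted p = 0.033, adjusted p = 0.33). By label, female controls lay 0.0756 above male controls (unadjusted p = 0.042, adjusted p = 0.99, limma). Aplp1 moved with the oligodendrocyte markers over the 40 arrays (r = 0.491). All 11 measured oligodendrocyte markers, of 13 listed, lay above controls over all lead. Of these Mog, Mag, Cnp, Cldn11 and Ugt8 were called (5 of 11, where 0.38% of all probe sets were), with a median difference of 0.171 and list means of 11.01 to 11.15 in controls and 11.01 to 11.49 after lead. Their part in the Aplp1 values was not tested, and in whole tissue more cells of a type and more RNA per cell cannot be told apart.

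Taking the 7 genes in the 8 comparisons with controls, 0 of 56 tests passed an adjusted p under 0.05 with limma, where 0.0539% of all probe-set tests did. At an unadjusted p under 0.05 there were 4 of 56, or 3 of Psen2 and 1 of Sp1, where 6.13% of all probe-set tests reached it. Of the 56 differences 43 were above 0, against 51.4% over all probe sets. In 2 of 56 the 4 exposed arrays all lay above the 4 controls (1.93% of all), and in 0 of 56 all lay below (1.39%). Over all lead 0 of 7 were called, where 0.38% of all probe sets were, 6 of 7 lay above 0 (51.7% of all), and 1, Psen2, had an unadjusted p under 0.05. In the 14 other comparisons, of dose, window, sex and their interactions, 0 of 98 tests passed with limma, where 0.0352% of all did, and 6 of 98 had an unadjusted p under 0.05, where 6.63% of all did.

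**Figure D3:**
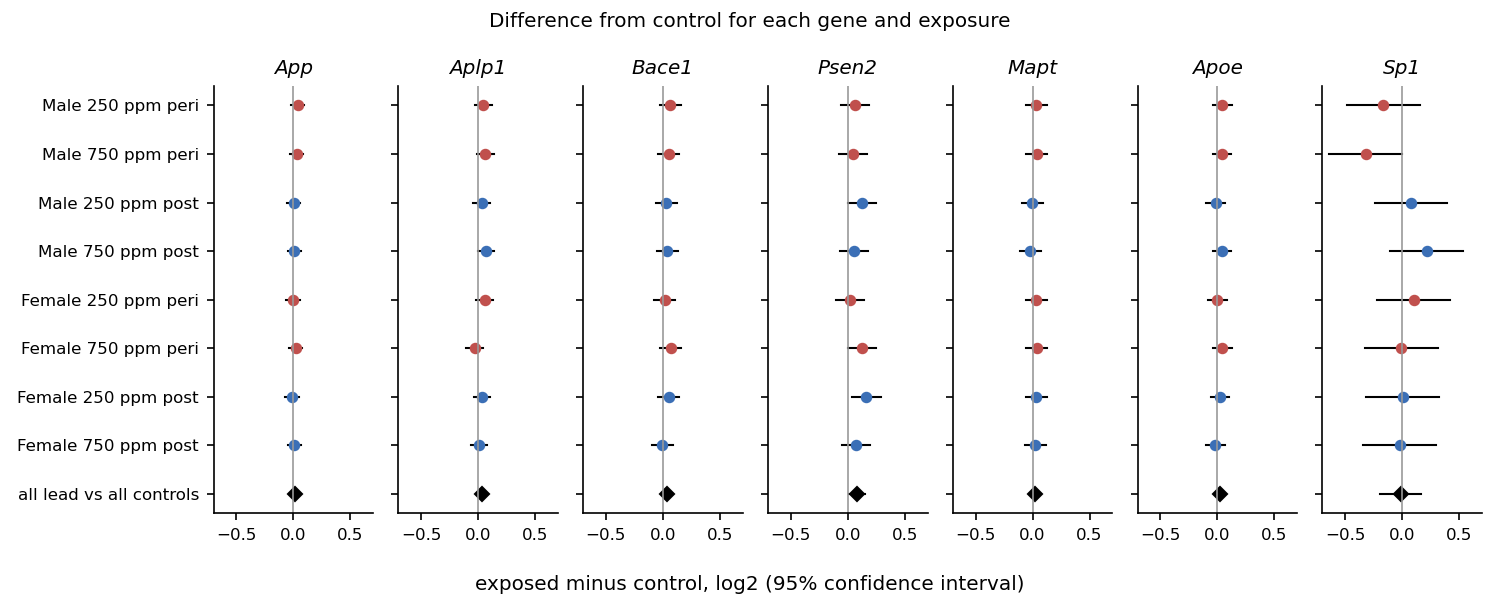
Difference in log2 signal between exposed and control arrays for each gene, in each of the 8 exposed groups and over all lead (black diamonds), with 95% confidence intervals as lines. The intervals of App stay within -0.0693 and 0.0966, those of Sp1 reach from -0.639 to 0.532, and the 8 points of Psen2 all lie to the right of 0.

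A test for any difference among the 10 groups was passed by no member. Sp1 had the smallest p among the members (unadjusted p = 0.0099, adjusted p = 0.24, limma F test), followed by Aplp1 (unadjusted p = 0.038, adjusted p = 0.36) and Psen2 (adjusted p = 0.52). App had an adjusted p of 0.87. In this test 0.654% of all probe sets were called. This test was added after the data had been seen.

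No measured gene of the pathway lists passed the test. Of 97 genes in 9 lists, 82 were measured, the members Bace1, Psen2 and Sp1 among them. Over the 8 groups and all lead, 0 of 738 tests passed an adjusted p under 0.05 (limma). Calls were rare among all probe sets too, at 0.0539% of tests in the 8 groups and 0.38% over all lead. Over all lead 46 of the 82 lay above 0, where 52.2% of all genes did, 10 had an unadjusted p under 0.05, where 7.66% of all probe sets did, and their median difference was 0.0088 against 0.0026 for all genes. Without the 3 members, 44 of 79 lay above 0 and 9 had an unadjusted p under 0.05. The lists were chosen with earlier results of these data known.

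The enzymes that cut App showed no common direction. Of the alpha-secretases 1 of 2 measured genes lay above 0 over all lead (median 0.0048), and Adam9, a metalloprotease of that group, differed most in females exposed perinatally to 250 ppm (-0.0857, SE 0.0478, adjusted p = 0.93, limma). Of the beta-secretases 1 of 2 lay above 0 (median -0.0208). Bace2, the close relative of Bace1, lay 0.36 lower in females given postnatal lead at 250 ppm (SE 0.157, adjusted p = 1). Of the gamma-secretase genes 3 of 5 lay above 0 (median 0.0164), with Psen2 the highest at 0.0838. Aph1b, a scaffold subunit of the complex, lay 0.39 lower in females given postnatal lead at 750 ppm (SE 0.13, adjusted p = 0.9999).

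Genes that bind or sort App and those that clear amyloid beta lay on both sides of 0. Of the binding and trafficking genes 9 of 16 lay above 0 (median 0.0164), and Apbb3, an adaptor that binds the tail of App, lay 0.15 lower in females exposed perinatally to 250 ppm (SE 0.0463, adjusted p = 0.46, limma). Of the clearance genes 4 of 10 lay above 0 (median -0.0045). Ece1, an endothelin-converting enzyme able to degrade amyloid beta, lay 0.21 higher in females exposed perinatally to 750 ppm (SE 0.0713, adjusted p = 0.50). A2m, which encodes the protease inhibitor alpha-2-macroglobulin, had the lowest difference over all lead of the 82 genes, -0.148. It was singled out after its value was seen.

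In the lists around tau and Apoe lipid, more genes lay above 0 than below. Of the tau kinases, phosphatases and binding partners 15 of 21 lay above 0 (median 0.0134). Fyn, a Src-family kinase that binds tau, lay 0.10 higher over all lead (SE 0.0274, unadjusted p = 0.00083, adjusted p = 0.12, limma). Fyn lay above controls in 8 of 8 groups, as did 6.05% of all genes, and the groups of a sex share their controls. Its adjusted p was 0.054 without the flattened arrays and 0.12 without the mismatched controls. Of the genes that handle Apoe lipid 7 of 10 lay above 0 (median 0.0244). Apod, a lipocalin that carries lipids in glia, was 0.11 higher over all lead (SE 0.0361, adjusted p = 0.25) and lay above controls in 8 of 8 groups. In females exposed perinatally to 250 ppm Apod lay 0.22 higher (SE 0.0646, adjusted p = 0.43), and against all 8 control arrays 0.25 higher (adjusted p = 0.045), past the threshold. The oligodendrocyte markers that lay above controls were given with Aplp1, and their part in the values of Fyn and Apod was not tested.

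Of the microglial risk genes 6 of 11 lay above 0 (median 0.0159). Trem2, a microglial receptor, lay 0.18 lower in males exposed perinatally to 250 ppm (SE 0.063, adjusted p = 0.44, limma), a group with 2 of the flattened arrays. Of the Sp transcription factors 0 of 5 lay above 0, with differences between -0.0338 and -0.0062, each smaller in size than its SE. By its second probe set Sp1 lay above 0 over all lead. Sp6, a member of that family, lay 0.25 higher in males exposed perinatally to 750 ppm (SE 0.0964, adjusted p = 0.49) and at -0.0062 over all lead.

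**Figure D4:**
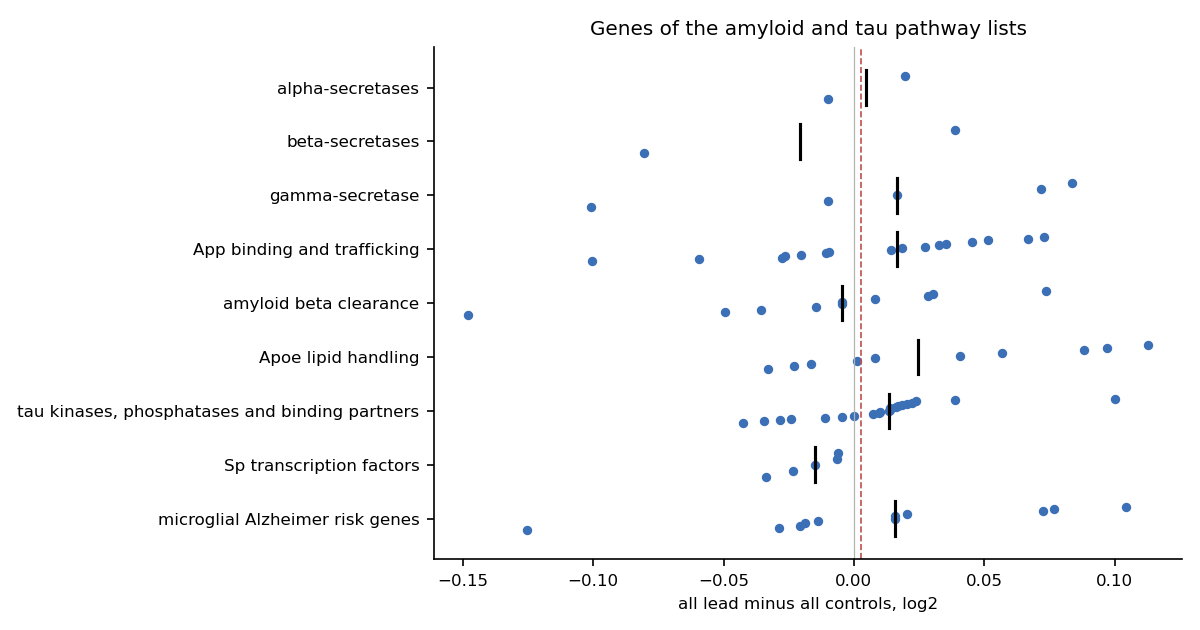
Difference in log2 signal over all lead against all controls for the 82 measured genes of the 9 lists, 1 point a gene, with the median of each list as a black bar. The dashed red line marks the median of all genes, 0.0026, and the list medians lie between -0.0208 and 0.0244.

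Over the 40 arrays the members varied with each other to differing degrees. App followed Apoe (r = 0.372) and Bace1 (r = 0.365) more than Sp1 (r = -0.118), and Bace1 followed Psen2 (r = 0.466). By its first probe set Sp1 ran with Aplp1 (r = 0.472) and against Mapt (r = -0.445), while its second gave r = -0.0395 with Aplp1 and 0.369 with Mapt. The genes whose signal was most like that of App were Spire1 (r = 0.723), Cry1 (r = 0.682) and Thrap3 (r = 0.679), of 14505 genes compared. Those most like the first Sp1 probe set were Rpl39 (r = 0.883), Psd3 (r = 0.864) and Tprkb (r = 0.842). After subtracting group means, Pkm, Nefh and Spire1 were most like App (r = 0.77, 0.756 and 0.733) and Rpl39, Psd3 and Ube2g1 most like that Sp1 probe set (r = 0.869, 0.867 and 0.861). These are descriptions over arrays that share their normalization and their flattened members, and no test was made of them.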

How the data were processed

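Hippocampal RNA (100 ng a sample) was measured on 40 rat whole-transcript arrays. The log2 signals were used as deposited by the authors, who processed the arrays with RMA and Partek, per the submitters' processing notes, without versions. Samples were grouped by their labels. The 7 members and the pathway and marker lists were chosen with earlier results of these data known.

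A limma model (limma 3.58.1, R 4.3.3) with a mean for each of 10 groups was fitted to all 29214 probe sets and 40 arrays, with empirical Bayes moderation and a variance trend. It gave 25 comparisons, with two-sided p-values adjusted by Benjamini-Hochberg within each. The threshold for a call was an adjusted p of 0.05, and intervals are at 95% from the moderated fit. Comparisons over several exposed groups give each group equal weight. The fit was tested on simulated data with known shifts, all larger than the differences of the members from controls. It does not show how well smaller shifts would be found. Individual marker genes were singled out once their values were known. The text names all members, the called genes of each pathway list, and where none was called the gene of smallest p over the 8 groups and all lead. Gene symbols come from the platform table, in which 15310 probe sets have 1 symbol, 323 several and 13581 none. The other settings tried were fits without the 40% of probe sets that were dimmest, quantile normalization on top of RMA, array weights, no variance trend, 2-group fits, the second Sp1 probe set, all 8 controls, leaving out mismatched controls or flattened arrays, the array slope as a covariate, the exposed group in the controls' title range alone, and leaving out each array. Figures were drawn with matplotlib 3.10.9.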

Additional observations from a re-analysis of the deposited data

Results flagged for a closer look

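In 7 of 80 groups of 4 arrays, 1 array stood apart from the other 3 by Dixon's test, where chance flags about 1 group in 20. For App these were male control replicate 2 at 12.15 (next 12.08), and the lowest male given postnatal lead at 250 ppm at 12.03 (next 12.11). The App values were close together in both groups, so that a gap of 0.08 log2 sufficed. Aplp1 was low at 11.59 on 1 array of the males exposed perinatally to 250 ppm (next 11.68), and Mapt was high at 11.05 in that group (next 10.95). Bace1 was high at 10.67 on 1 male control array (next 10.55). Psen2 was low at 7.99 on 1 array of the males exposed perinatally to 750 ppm (next 8.03), and Apoe was low at 12.32 on 1 array of the females given postnatal lead at 750 ppm (next 12.41).

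In 3 of 96 pairs of groups every array of one lay above the control mean and every array of the other below it, as in 1.3% of such pairs over all probe sets. For Sp1 the males at 750 ppm differed between postnatal and perinatal lead by 0.53 (adjusted p = 0.12, limma). For the second Sp1 probe set the males at 250 ppm differed between the windows by 0.083 (adjusted p = 0.81), and the response to perinatal lead at 250 ppm differed between females and males by 0.16 (adjusted p = 0.9998). None of these 3 differences passed the test.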

How the results depend on the processing

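Under 11 other settings 464 differences of single genes were recomputed, of which 421 kept their sign and call, 42 turned in sign and 1 passed the threshold, and all 102 counts of called members stayed at 0. The 1 was Apod in females exposed perinatally to 250 ppm against all 8 controls, 0.2487 (adjusted p = 0.045, limma; from 0.23 to 0.52 under the other settings). The cause of the reversals was not tested.

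Over all lead, App became -0.0076, Apoe -0.0116, Sp1 0.0455, Apbb3 -0.0066, Trem2 0.0014 and Sp6 0.0059 without the mismatched controls. In the females exposed perinatally to 750 ppm alone, Sp1 became 0.0859, Apbb3 -5e-04 and Trem2 0.0227. Without the flattened arrays Sp1 became 0.0312 and Adam9 6e-04, and by the second probe set Sp1 became 0.0418. Sp6 became 0.006 with the array slope as covariate and 0.0053 with array weights. App under postnatal lead as a whole became -0.0035 with the slope and -0.0169 without the mismatched controls.

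In single groups App became 0.0122 (females, perinatal, 250 ppm), 0.0039 (females, postnatal, 250 ppm), -0.0127 (males, postnatal, 250 ppm) and -0.0076 (males, postnatal, 750 ppm) against all 8 controls. With the slope it became 0.0019 (females, perinatal, 250 ppm), -0.0046 (males, postnatal, 250 ppm) and -0.01 (males, postnatal, 750 ppm). A further quantile normalization gave App 0.009 (females, perinatal, 250 ppm), 0.0327 (females, postnatal, 250 ppm) and -0.001 (males, postnatal, 750 ppm), and array weights gave 0.0037 (females, perinatal, 250 ppm). Without the mismatched controls App became -0.014 and -0.0231 in females at 750 ppm (perinatal, postnatal) and -0.0024 in males given postnatal lead at 250 ppm. Sp1 in females at 750 ppm (perinatal, postnatal) became 0.0859 and 0.0739 against all 8 controls, 0.0561 and 0.1075 by the second probe set, and 0.087 and 0.075 without the mismatched controls. With the slope the postnatal value became 0.0067. Sp1 in females given postnatal lead at 250 ppm became -0.0087 with the slope, -0.1074 with array weights and -0.0019 with quantile normalization. In males given postnatal lead at 250 ppm it became -0.0167 against all 8 controls, and in males exposed perinatally to 250 ppm 0.1343 without the flattened arrays.

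Leaving out each array or exposed group in turn gave 624 values and 144 counts, of which 143 stayed at 0. Between the windows in males at 750 ppm, Sp1 ran from 0.4632 to 0.6335 and the count of called members from 0 to 1 (adjusted p = 0.0498, limma). The ranges that crossed 0 over all lead were -0.1006 to 0.0419 for Sp1, -0.0294 to 0.011 for Adam9, -0.0029 to 0.0285 for Apbb3, -0.0342 to 0.0165 for Sp6 and -0.0372 to 8e-04 for Trem2, and under postnatal lead -0.0056 to 0.0127 for App and -0.0167 to 0.1225 for Sp1. In females App crossed 0 at 250 ppm (-0.0272 to 0.0176 perinatal, -0.0291 to 0.0093 postnatal) and at 750 ppm postnatal (-0.0054 to 0.031), and in males after postnatal lead (-0.0071 to 0.0232 at 250 ppm, -0.0044 to 0.0283 at 750 ppm). Sp1 crossed 0 in females at 250 ppm (-0.072 to 0.2062 perinatal, -0.1658 to 0.1125 postnatal) and 750 ppm (-0.1796 to 0.0986 perinatal, -0.1917 to 0.0866 postnatal). Psen2 in females exposed perinatally to 250 ppm ran from -0.0122 to 0.0503. No paired analysis was possible because the labels give no replicate numbers, and those used here only name samples.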
